A study of Homo sapiens with 4 samples.

Results

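The regions described here are promoter peaks of STAT5A that lie beside a transcript start, within 1 kb of it, without covering it. STAT5A was mapped by ChIP-seq, which pulls down the DNA bound by a protein with an antibody and sequences it, in the established human myeloma cell line ARP1, derived from bone marrow. The groups were wild-type cells and cells with a knockdown of YTHDF2, each with 1 library pulled down with an antibody to STAT5A and 1 input library, 4 libraries in all. The sources used here do not give how the knockdown was made or whether the cells were 1 clone. The authors deposited 1 peak list per condition, on genome build hg38, with the annotation class, the credited transcript and the distance from the peak's nearer edge to that transcript's start. Peaks were taken where the class was the authors' promoter class of up to 1 kb and the distance was not 0. The lists held 9840 such peaks of 86496 in all. The knockdown list held 4167 of its 31227 peaks in this class, of which 1647 lay upstream and 2520 downstream of the start. The wild-type list held 5673 of 55269, of which 2334 lay upstream and 3339 downstream. Peaks at distance 0 covered the start and are called spanning peaks below. They numbered 11404 in the knockdown list and 15839 in the wild-type list and served as the comparison.

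STAT5A is a signal-dependent transcription factor that JAK kinases switch on by phosphorylation after a cytokine has met its receptor. As a dimer it recognises a palindromic DNA element with a short spacer (the GAS element) and acts from promoters and from distant enhancers. YTHDF2 reads the N6-methyladenosine mark on messenger RNA and directs marked transcripts to decay. A transcript start in an active promoter usually sits in a stretch free of nucleosomes, with the core promoter elements just before it and the first transcribed bases, often a CpG-rich first exon, after it. Relative to the credited start, a peak upstream lies before the transcribed region and a peak downstream within it, although that start need not be the gene's first. With 1 list per condition there was no replicate, so no p-value is given and differences between conditions have no replicate check. The 95% intervals on shares are exact (Clopper-Pearson), counting error is all they cover, and the depth of the libraries is unknown. The fold enrichment of each peak is the authors' own and is used to describe and rank peaks within a list.

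The promoter sequence shows what lay under an upstream peak that stopped short of the start. The 5 windows below are the 250 bases before the RefSeq start (assembly GRCh38.p14), read on the gene's own strand, with the bases under the peak in capitals and those outside it in lower case. The peak marked is the wild-type one at HES1, DDX3X and PAX5 and the knockdown one at TTF2 and ISL2. They were chosen after their values were seen, because no RefSeq gene covers them, the peak reaches over most of the window and they show both ways in which the lists differ. HES1, a repressor in the Notch pathway, is on the plus strand at chr3:194135898-194136147. TTF2, a transcription termination factor, is on the plus strand at chr1:117060076-117060325. ISL2, a homeobox factor of motor neurons, is on the plus strand at chr15:76336523-76336772. DDX3X, an RNA helicase, is on the plus strand at chrX:41333058-41333307. PAX5, the factor that holds B-cell identity and is normally silenced in plasma cells, is on the minus strand at chr9:37034269-37034518.
HES1: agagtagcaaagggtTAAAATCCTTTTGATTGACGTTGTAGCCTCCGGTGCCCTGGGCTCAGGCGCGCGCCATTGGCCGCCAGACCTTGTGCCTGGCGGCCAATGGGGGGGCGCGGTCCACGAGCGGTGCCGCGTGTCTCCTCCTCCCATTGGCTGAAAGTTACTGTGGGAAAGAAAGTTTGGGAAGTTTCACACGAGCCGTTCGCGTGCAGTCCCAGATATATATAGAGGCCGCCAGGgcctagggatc
TTF2: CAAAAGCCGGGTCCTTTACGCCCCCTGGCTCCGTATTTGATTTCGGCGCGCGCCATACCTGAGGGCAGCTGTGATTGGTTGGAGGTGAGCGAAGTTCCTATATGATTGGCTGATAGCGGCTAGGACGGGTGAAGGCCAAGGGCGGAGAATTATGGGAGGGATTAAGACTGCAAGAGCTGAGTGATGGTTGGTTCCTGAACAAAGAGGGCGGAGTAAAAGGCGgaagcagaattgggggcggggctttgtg
ISL2: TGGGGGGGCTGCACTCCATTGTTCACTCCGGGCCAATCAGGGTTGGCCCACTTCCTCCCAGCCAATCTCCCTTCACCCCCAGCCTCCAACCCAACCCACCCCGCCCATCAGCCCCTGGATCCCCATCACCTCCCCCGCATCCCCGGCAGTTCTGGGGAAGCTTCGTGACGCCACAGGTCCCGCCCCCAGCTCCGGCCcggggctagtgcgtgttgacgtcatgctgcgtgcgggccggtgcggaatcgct
DDX3X: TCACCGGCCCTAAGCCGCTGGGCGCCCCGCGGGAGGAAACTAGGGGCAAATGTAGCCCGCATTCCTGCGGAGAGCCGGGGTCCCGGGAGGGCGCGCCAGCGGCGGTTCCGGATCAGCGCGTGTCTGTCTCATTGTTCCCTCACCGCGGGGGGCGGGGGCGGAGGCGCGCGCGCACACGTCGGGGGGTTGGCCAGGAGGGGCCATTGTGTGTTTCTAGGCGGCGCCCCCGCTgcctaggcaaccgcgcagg
PAX5: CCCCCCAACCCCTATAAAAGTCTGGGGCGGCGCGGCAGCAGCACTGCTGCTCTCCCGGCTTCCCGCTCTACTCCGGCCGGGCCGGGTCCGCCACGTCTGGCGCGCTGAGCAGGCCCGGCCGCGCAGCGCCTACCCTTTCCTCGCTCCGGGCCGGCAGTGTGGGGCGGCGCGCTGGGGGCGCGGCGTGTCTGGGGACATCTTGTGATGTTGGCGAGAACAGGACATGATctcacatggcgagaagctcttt
In each of these windows the last bases before the RefSeq start are in lower case and lay outside the peak. At HES1 so did the first bases of the window. The marked peaks ended 12 bp (HES1), 29 bp (TTF2), 54 bp (ISL2), 20 bp (DDX3X) and 23 bp (PAX5) from the RefSeq start. The distances that follow are to the credited start, which lay at another base in each of the 5. The wild-type HES1 peak covered 224 of the 250 bases and ended 9 bp before the credited start (fold 14.7), and the knockdown peak at the same place ran from 194135892 to 194136195, across the start (fold 12.5). At TTF2 and ISL2 the roles of the lists were exchanged. The knockdown TTF2 peak stopped 6 bp short with a fold of 6.43, while the wild-type peak spanned the start with a fold of 6.76. The knockdown ISL2 peak stopped 5 bp short with a fold of 7.71, while the wild-type peak spanned the start with a fold of 16.4. At DDX3X the peak stayed upstream in both lists, 101 bp from the start in knockdown (fold 5.92) and 60 bp in wild type (fold 14.7). PAX5 likewise kept an upstream peak in both lists, at 286 bp (fold 3.76) and 106 bp (fold 11.6). The peaks of HES1, TTF2 and ISL2 that counted as upstream thus stopped within a few bases of the credited start that the other list's peak covered.

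Upstream and downstream peaks differed in how close they lay to the start. In the knockdown list the median distance was 331 bp upstream and 228 bp downstream, and in the wild-type list 438 bp upstream and 345 bp downstream. The 100 bp next to the start held 32.8% of the downstream knockdown peaks (95% interval 31.0 to 34.7%) against 18.1% of the upstream ones (16.3 to 20.0%). The wild-type shares were 20.0% (18.7 to 21.4%) and 15.0% (13.5 to 16.5%). The downstream peaks therefore crowded against the start in both lists, the knockdown ones more so. The class is bounded by 0 and 1 kb: its nearest peaks lay 1 bp from the start, its farthest 999 bp (knockdown) and 1000 bp (wild type), and the nearest peak of the next promoter class lay at 1001 bp in both lists. The nearest upstream peaks in knockdown belonged to HAR1B, a non-coding RNA gene, and TEFM, a mitochondrial transcription elongation factor, and both overlapped a wild-type peak that spanned the start. Measured from the summit, the highest point of the peak, the median distances were longer, at 543 bp upstream and 469.5 bp downstream in knockdown and 697 and 632 bp in wild type. The summit lay more than 1 kb from the start for 463 knockdown peaks (11.1%) and 1189 wild-type peaks (21.0%).

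**Figure D1:**
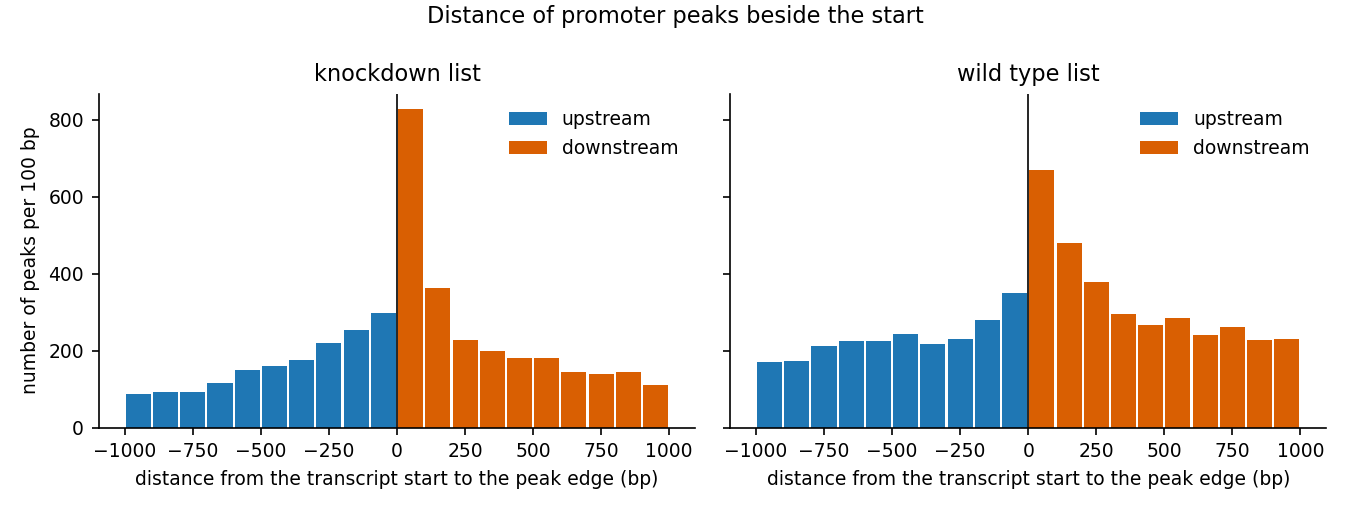
Number of peaks in each 100 bp of distance between the transcript start (0) and the nearer peak edge, upstream to the left in blue and downstream to the right in orange, for the knockdown and wild-type lists. The bar just downstream is the tallest in both lists, with 827 knockdown and 669 wild-type peaks.

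By fold these peaks lay level with the peaks of the other classes, and by both fold and width they lay below the spanning peaks. The median fold in the knockdown list was 3.96 upstream and 4.02 downstream, against 5.26 for spanning peaks and 4.00 for peaks of every other class. Among wild-type peaks it was 5.30 upstream and 5.41 downstream, against 10.4 and 5.34. The upper quartile of the upstream and downstream folds lay below the spanning median in both lists. Widths also lay below those of spanning peaks. The knockdown medians were 344 bp upstream, 359 bp downstream and 747 bp for spanning peaks, against 326 bp for the other classes. The wild-type medians were 419, 431 and 907 bp, against 418 bp. The knockdown peaks beside a start were thus slightly wider than peaks of the other classes. High folds were rare: a fold of at least 20 was reached by 15 upstream knockdown peaks (0.911%) and 13 downstream ones (0.516%), while 3.63% of all knockdown peaks and 9.10% of the spanning ones reached it. Of the wild-type peaks, 30 upstream (1.29%) and 23 downstream peaks (0.689%) did, against 4.62% of all peaks and 14.6% of spanning peaks. The median fold in each 100 bp upstream stayed between 3.76 and 4.16 in knockdown and between 5.09 and 5.41 in wild type. Downstream it lay between 3.94 and 4.14 in knockdown, and in wild type it went from 5.82 in the first 100 bp to 4.87 between 801 and 900 bp.

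**Figure D2:**
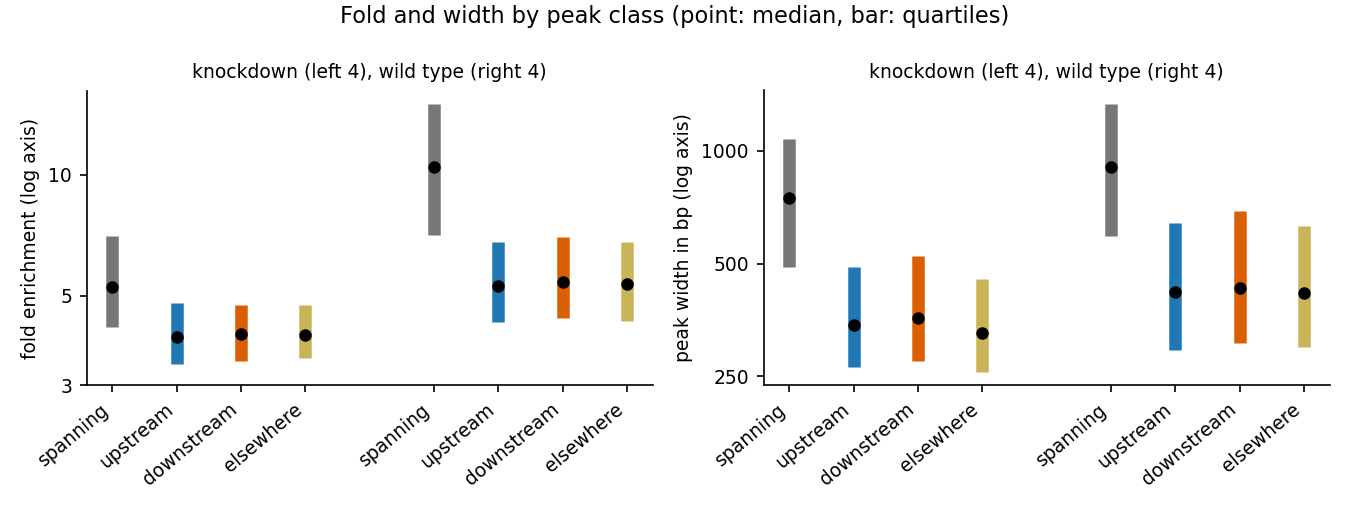
Fold enrichment (left panel, log axis) and peak width in bp (right panel, log axis) by peak class, knockdown on the left and wild type on the right of each panel, with points for medians and bars from the lower to the upper quartile. Upstream and downstream peaks sit level with peaks elsewhere by fold, and below spanning peaks by fold and width, in both lists.

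Most knockdown peaks beside a start overlapped a wild-type peak, whereas most wild-type ones had no knockdown peak over them. Overlap by at least 1 bp was found for 1304 of 1647 upstream knockdown peaks (79.2%, 95% interval 77.1 to 81.1%) and 2176 of 2520 downstream ones (86.3%, 84.9 to 87.7%). Over all knockdown peaks the share was 77.1%, and over spanning peaks 97.4%. Conversely, 599 of 2334 upstream wild-type peaks (25.7%, 23.9 to 27.5%) and 927 of 3339 downstream peaks (27.8%, 26.2 to 29.3%) overlapped a knockdown peak, where all wild-type peaks gave 40.4% and spanning peaks 77.3%. The upstream knockdown share was thus near that of its whole list, and both wild-type shares were below theirs. The wild-type list was the longer one. Cut by q-value to as many peaks as the knockdown list, it held 2662 peaks beside a start, of which 44.2% overlapped a knockdown peak, and 74.2% of the knockdown peaks beside a start then overlapped it. A demand that each peak cover 50% of the other left 31.8% of the knockdown and 16.4% of the wild-type peaks as shared. Stronger peaks were shared more often. From the lowest to the highest fold class of equal size the shared share went from 71.8 to 87.4% for upstream knockdown peaks and from 13.5 to 54.5% for upstream wild-type peaks, and from 82.7 to 92.7% and from 12.5 to 60.0% for downstream peaks.

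In the knockdown list the overlap was highest next to the start. It went from 90.3% of upstream peaks within 100 bp (86.3 to 93.4%) to 54.0% between 901 and 1000 bp (43.0 to 64.8%), and downstream from 92.4% (90.4 to 94.1%) to 77.7% (68.8 to 85.0%). The upstream decline was the steeper one. The upstream wild-type shares stayed between 21.5 and 30.1% in every 100 bp, with no order by distance, and only the first 100 bp downstream stood higher, at 35.3% (31.7 to 39.0%).

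**Figure D3:**
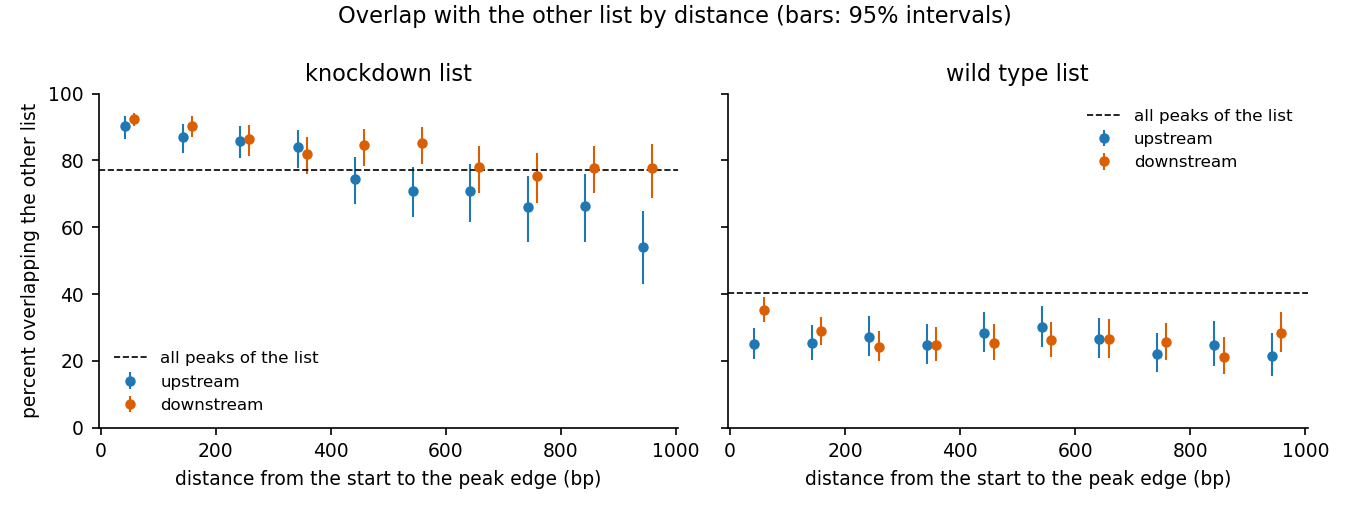
Percent of peaks beside the start that overlap a peak of the other list, by distance from the start in bins of 100 bp, upstream in blue and downstream in orange, with 95% intervals of counting error. The dashed line is the share over all peaks of the list, 77.1% in knockdown and 40.4% in wild type; the knockdown points start at 90.3% upstream and 92.4% downstream, and the upstream ones end at 54.0%.

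The overlapping peak in the other list often had another class. Of the upstream knockdown peaks, 49.6% (47.2 to 52.0%) lay under a wild-type peak that spanned a start and 28.2% under a wild-type upstream peak, and 20.8% had no wild-type peak. Of the downstream ones, 56.7% (54.7 to 58.7%) lay under a spanning wild-type peak, 28.5% under a downstream peak, and 13.7% had none. A separate spanning knockdown peak was credited to the same gene for 51.9% of these upstream and 37.3% of these downstream peaks, so a spanning counterpart does not show that the gene lacked a spanning peak in knockdown. The reverse was rare. In the wild-type list only 2.70% of upstream peaks (2.08 to 3.44%) and 2.85% of downstream peaks (2.31 to 3.47%) had a spanning knockdown peak as counterpart. Where the counterpart spanned a start, the spanning peaks had the larger median width, in whichever list they lay. These pairs are sorted by whether a peak reaches a start, so a wider spanning peak follows in part from that sorting. The upstream knockdown peaks had a median width of 356 bp and the wild-type peaks over them 1507 bp. For the downstream knockdown peaks the medians were 381 and 1272 bp. The upstream wild-type peaks had 366 bp and their spanning knockdown counterparts 721 bp, and the downstream wild-type ones 419 and 642 bp. Against the wild-type list cut to equal length, 51.5% of the knockdown peaks beside a start still lay under a spanning peak. With both peaks required to cover 50% of each other, 11.8% did. Seen from the other side, 483 spanning wild-type peaks had an upstream knockdown peak as counterpart and 1065 a downstream one, together a small part of the 15839.

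**Figure D4:**
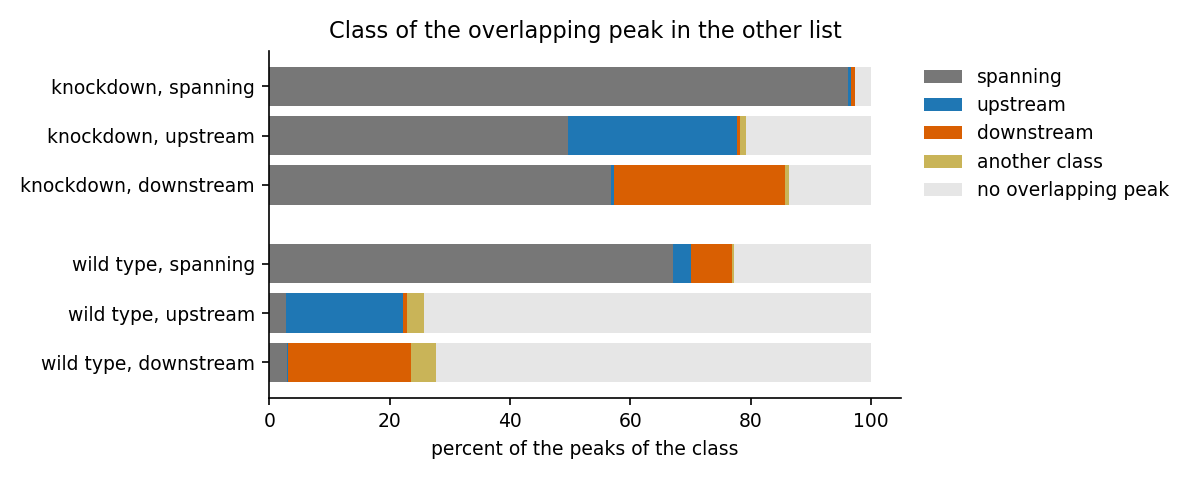
Class of the overlapping peak in the other list, as percent of the peaks of each class, for spanning, upstream and downstream peaks of the knockdown list (top) and wild-type list (bottom). Knockdown peaks beside a start met a spanning wild-type peak in 49.6% (upstream) and 56.7% (downstream) of cases, and wild-type ones met no peak in 74.3 and 72.2%.

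Peaks beside a start were often near a further peak. Another peak of the same list lay within 500 bp of 36.7% of the upstream and 28.0% of the downstream knockdown peaks, against 12.4% of the spanning ones. The wild-type shares here were 39.7, 32.3 and 13.9%. The smallest gap between peaks of a list was 212 bp (knockdown) and 222 bp (wild type), next to smallest widths of 211 and 221 bp, so closer pairs are not listed apart. The credited gene also had a spanning peak in the same list for 52.7% of upstream and 41.5% of downstream knockdown peaks, and for 73.4 and 65.8% in wild type. Over all peaks, spanning ones included, these shares were 67.8 and 78.1%, and over peaks of the other classes 50.1 and 69.4%, so upstream peaks lay above and downstream peaks below the other classes. In that case the peak beside the start was the weaker one in 76.0% (upstream) and 77.6% (downstream) of knockdown pairs and in 87.5 and 87.6% of wild-type pairs.

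The starts to which these peaks were credited were often internal to the gene. In knockdown this was less often so than for peaks of the other classes, and in wild type more often. The credited start lay within 100 bp of the gene's RefSeq start for 39.2% of the knockdown peaks beside a start (37.7 to 40.7%) and 25.3% of the wild-type ones (24.1 to 26.4%), against 56.0 and 51.4% of spanning peaks. For peaks of the other classes these shares were 38.1 and 35.2%. The credited start lay over 1 kb inside the gene for 37.0% of knockdown and 60.0% of wild-type peaks beside a start. Peaks of the other classes gave 45.9 and 49.9%, all peaks 34.4 and 43.9%, and spanning peaks 17.7 and 25.5%. Peaks at the gene start were shared with the other list more often than peaks at internal starts, 86.4 against 78.9% in knockdown and 34.9 against 20.0% in wild type. The choice of transcript can also hide a covered start: 207 knockdown (4.97%) and 185 wild-type peaks (3.26%) spanned the RefSeq start of their own credited gene although their distance to the credited transcript was not 0. Another gene's start lay under 2.42% of the knockdown and 1.85% of the wild-type peaks beside a start. Peaks of the other classes gave 1.76 and 1.71%, and spanning peaks 18.9 and 18.7%. The rule that sets the class, a distance other than 0, can itself lower this share, so the contrast with spanning peaks is not a separate result.

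Counted by gene, the knockdown peaks were credited to 3448 genes, of which 2880 had a single one, and the wild-type peaks to 4002 genes, of which 3016 had a single one. Of the 19974 protein-coding genes in the RefSeq table, 6.71% had an upstream and 10.6% a downstream peak in the knockdown list, and 8.29 and 12.3% in the wild-type list. MCF2L, a guanine nucleotide exchange factor, had the highest count in knockdown, with 10 peaks over 8 starts, and it had 9 in wild type. In the knockdown list 1612 protein-coding genes had a peak beside a start and no spanning peak; in the wild-type list 1086 of these (67.4%) had a spanning peak, 362 only a peak beside a start, and 164 neither. In the wild-type list 1084 genes were in that state, of which 104 (9.59%) had a spanning peak in the knockdown list and 618 (57.0%) had no promoter peak within 1 kb there. As background, 11831 of all 19974 protein-coding genes had a spanning peak in the wild-type list and 9586 in the knockdown list.

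Among the upstream peaks of protein-coding genes, the highest folds belonged to genes of several functions, and most of these peaks lay at the same place in both lists. Of the wild-type peaks, that of ZBTB32, a zinc-finger repressor of lymphocytes and plasma cells, led with a fold of 647 at 960 bp upstream (chromosome 19, 35701969 to 35703567), and the overlapping knockdown peak had a fold of 272 and was annotated outside the 1 kb class. FGF9, a fibroblast growth factor, followed with a fold of 522 at 28 bp, and its knockdown counterpart spanned a start with a fold of 282. Of the knockdown peaks, that of GLIS1, a Krüppel-like zinc-finger factor, led with a fold of 136 at 244 bp (chromosome 1, 53738350 to 53739614), under a spanning wild-type peak of 723. KMT2E, a PHD and SET domain protein of chromatin, came next with 121 at 630 bp (chromosome 7, 105012476 to 105013549), under a spanning wild-type peak of 296. Both of these knockdown peaks ended short of a start that the wild-type peak covered. KMT2E also had a separate spanning knockdown peak, 220 bp away with a fold of 4.04, and GLIS1 had none. Other strong peaks kept their class. MAMSTR, a coactivator of MEF2 factors, was upstream in both lists, with 63.3 (knockdown) and 97.6 (wild type). ABL1, a tyrosine kinase, was upstream with 44.3 and 81.2, and FAT4, an atypical cadherin, with 29.1 and 101. TTBK1, a kinase of tau, was upstream with 27.7 and 110. SLC17A7, a vesicular glutamate transporter, was upstream with 32.4 and 58.4. The distances here are to the nearer peak edge, and the summits of the strongest knockdown peaks lay farther out. They were 1181 bp (GLIS1), 1042 bp (KMT2E), 1062 bp (MAMSTR), 1214 bp (ABL1), 1478 bp (SLC17A7) and 1531 bp (FAT4) from the start. A summit beyond 1 kb was found for 11.1% of all knockdown peaks beside a start. FKBP14, a prolyl isomerase of the endoplasmic reticulum, had a wild-type peak 2 bp upstream with a fold of 118, under which the knockdown peak spanned the start with 86.9.

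The strongest downstream peaks reached lower folds. CCNP, a cyclin-like gene listed as CNTD2, had the highest one in knockdown, with a fold of 73.3 at 943 bp, and 34.2 at 945 bp in wild type. LMTK3, a membrane-bound kinase, led the wild-type list with 79.0 and had 34.9 in knockdown. INSIG1, which holds the sterol sensor complex in the endoplasmic reticulum, had a wild-type peak of 74.5 at 304 bp, and the knockdown counterpart of 34.8 spanned a start. ELF2, an ETS-family factor, was downstream in both lists, with 47.5 (knockdown) and 69.2 (wild type). OPA3, a mitochondrial protein, LCN12, a lipocalin, and LUC7L2, a splicing factor, had downstream knockdown peaks of 38.3, 33.9 and 32.3, each under a spanning wild-type peak, of 37.6, 99.1 and 84.1. LUC7L2 also had a spanning knockdown peak, of 3.24.

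**Figure D5:**
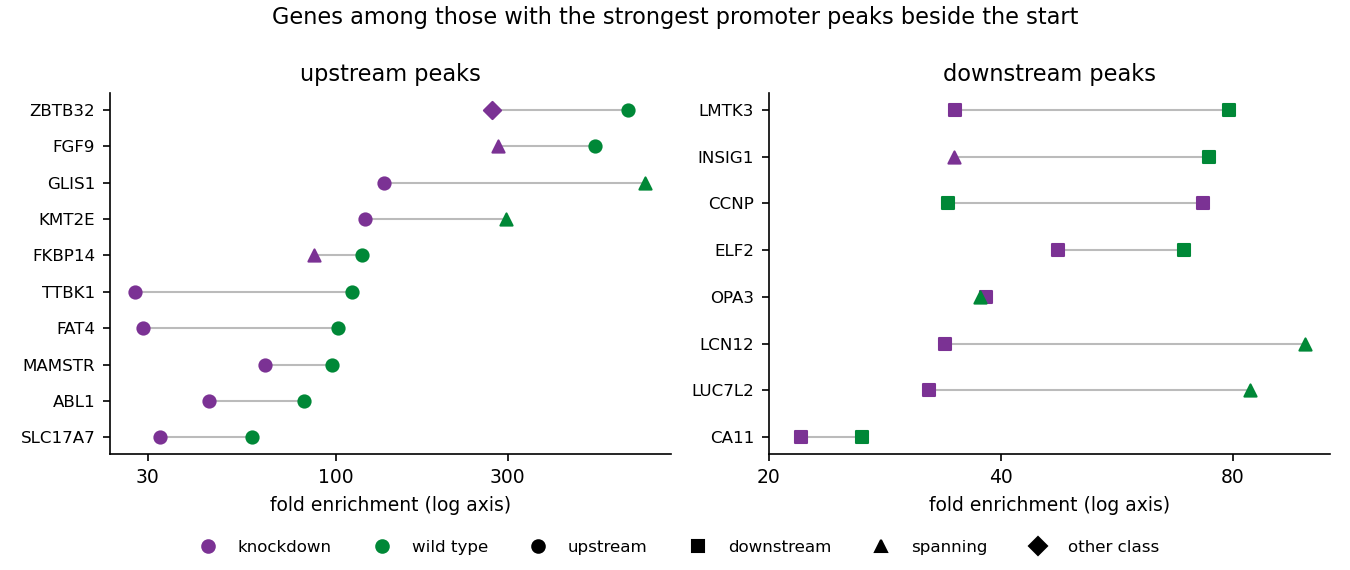
Fold enrichment (log axis) in knockdown (purple) and wild type (green) for protein-coding genes among those with the strongest upstream (left) and downstream (right) peaks; circles stand for upstream, squares for downstream, triangles for spanning and diamonds for another class. The wild-type value is the higher one for every gene shown except CCNP and OPA3, and the median over all peaks is also higher in wild type, at 6.0 against 4.35.

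Some strong peaks were credited to RNA genes that exist in several near-identical copies, and these values are uncertain, since reads may have been split between copies or shared by them. The peak upstream of MIR1302-3 on chromosome 2 had the highest fold of the class in each list, of 771 in knockdown (113583466 to 113584542) and 2034 in wild type (113583594 to 113584598). It lies over the pseudogene WASH2P and the non-coding gene LOC124907875, in a family of sequences otherwise found near chromosome ends. The upstream peaks credited to MIR1302-2 lay on chromosome 19 and had folds of 78.5 and 159. In the wild-type list only, RN7SK, the small nuclear RNA that holds the elongation factor P-TEFb, had a peak 8 bp downstream with a fold of 49.6. The ribosomal RNA gene RNA5-8SN5 on chromosome 21 had 4 wild-type peaks of 35.8, 13.5, 11.8 and 8.85. None of these RN7SK and RNA5-8SN5 peaks overlapped a knockdown peak. In all, 54 knockdown and 142 wild-type peaks beside a start were credited to microRNA genes, with median folds of 4.04 and 5.25.

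Protein-coding peaks with no counterpart had lower folds than the RN7SK peak and the strongest RNA5-8SN5 peak. The strongest upstream knockdown ones were at DCAKD (7.40), TMEM217 (6.81), RLIM, a ubiquitin ligase (6.43), and ANTXRL (6.18). The strongest downstream ones were at RHOQ, a small GTPase (8.99), SHKBP1 (8.39), GPATCH2 (7.06) and MMGT1 (6.38). Of these, TMEM217, RHOQ and SHKBP1 also had a spanning knockdown peak, and the others had none. In the wild-type list the upstream ones were at HOXD3, a homeobox factor (13.9), ARID3C (13.1), SLC4A10, a bicarbonate transporter (12.4), and PGPEP1L (12.2). The downstream ones were at BDNF, a neurotrophin (13.9), TMEM200C (13.8), SOX2, a pluripotency factor (13.5), and DPYSL4 (13.5). BDNF, SOX2 and DPYSL4 also had a spanning wild-type peak.

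The widest peaks were all in the wild-type list. BRSK2, a brain kinase, had a downstream wild-type peak of 6918 bp and an upstream one of 4784 bp, with folds of 7.64 and 9.51. HELZ2, a nuclear helicase, had a downstream one of 5277 bp, and SSTR5-AS1, an antisense RNA gene, an upstream one of 4766 bp. The widest knockdown ones were at NKX6-2, a homeobox factor (2607 bp upstream), and SKOR2, a corepressor (2250 bp downstream), and both lay under spanning wild-type peaks.

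Of the genes at the centre of the study, YTHDF2 and STAT5A had no peak beside a start in either list. MAP2K2, the gene of the kinase MEK2 that activates ERK, had a single one, in the wild-type list, 582 bp downstream of a credited start (chromosome 19, 4099013 to 4099490). Its fold was 5.82, that start lay 24050 bp inside the gene, and no knockdown peak overlapped it. The spanning wild-type peak of MAP2K2 had a fold of 13.5, so this one was the weaker.

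Members of signalling and cell-type gene lists were counted next; the lists were chosen with earlier results of these data known. Of 24 known STAT5 target genes, 5 had an upstream and 3 a downstream peak in knockdown, and 7 and 2 in wild type, where the background over protein-coding genes is 6.71 and 10.6% in knockdown and 8.29 and 12.3% in wild type. Their median fold was 4.61 (knockdown) and 7.01 (wild type), against 3.99 and 5.36 over all peaks beside a start. CCND2, a D-type cyclin, had an upstream peak in both lists, at 646 bp with a fold of 4.55 and at 689 bp with 15.2, and in knockdown also a downstream one 2 bp past the start under a spanning wild-type peak of 9.90. MYC, the growth-promoting transcription factor, had a downstream peak in both, at 721 bp with 6.39 and at 740 bp with 12.5. DUSP6, the phosphatase that switches off ERK, had a pair of upstream peaks in each list, with folds of 5.01 and 5.0 in knockdown and 7.13 and 12.2 in wild type. BCL6, a repressor of germinal-centre B cells, was upstream in both with 4.93 and 6.89, and ID1, an inhibitor of bHLH factors, with 4.12 and 8.51. PIM1, a survival kinase, had an upstream knockdown peak of 3.37 and, 236 bp from it, a spanning knockdown peak of 4.50, where a spanning wild-type peak of 14.3 lay over the upstream one. OSM, a cytokine, and PIM2 had upstream peaks in wild type with no knockdown overlap, as had CCND1 downstream.

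Of 24 genes of the JAK-STAT pathway itself, 2 had a peak beside a start in knockdown and 3 in wild type, all downstream. Over all protein-coding genes the share with a peak on either side was 15.4% in knockdown and 17.3% in wild type, and with an upstream peak 6.71 and 8.29%, so that few of 24 genes would be reached at these shares. The downstream peaks were found at JAK3 and PTPN6 in knockdown (3.49 and 2.96) and at PTPN6, STAT4 and TYK2 in wild type (5.79, 6.28 and 3.14). PTPN6, the phosphatase SHP-1 that restrains JAK signalling, was the gene with 1 in both. Of 30 RAS-RAF-MEK-ERK genes, 7 had a peak beside a start in knockdown (5 upstream, 5 downstream) and 6 in wild type (4 upstream, 2 downstream). In knockdown, DUSP4, a phosphatase, EGR1, an early zinc-finger factor, and SPRY2, an inhibitor of receptor signalling, had peaks on both sides of the start, under a spanning wild-type peak of 18.7, 10.7 and 9.65. DUSP4 and EGR1 also had a spanning knockdown peak between them, of 4.30 and 5.93, and SPRY2 had none. JUN had a downstream knockdown peak of 6.16, also under a spanning wild-type peak, of 11.3. FOS had an upstream wild-type peak of 12.6 at 978 bp, over a knockdown peak of 3.82 annotated in another class. SPRED2, an inhibitor of RAF activation, had an upstream wild-type peak of 6.17 with no knockdown overlap.

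Of 21 genes that write, erase or read m6A, 3 had a peak beside a start in knockdown and 2 in wild type. Over all protein-coding genes the shares were 15.4 and 17.3%. The IGF2BP readers were the ones with such peaks. IGF2BP3 had an upstream peak in both lists, at 634 bp (fold 6.66) in knockdown and at 636 bp (fold 14.4) in wild type. IGF2BP2 had one at 39 bp with 5.21 and at 33 bp with 13.8. Both kept class and place across the lists. IGF2BP1 had a downstream knockdown peak of 3.67 with no wild-type overlap. Of 24 plasma cell and myeloma genes, 11 had a peak beside a start in knockdown and 7 in wild type, against the same 15.4 and 17.3%. CD38, the surface enzyme targeted in myeloma, was downstream in both with 6.42 and 11.2, and MAF, a factor deregulated in myeloma, upstream in both with 3.79 and 9.56. XBP1, a factor of plasma cell secretion, had an upstream knockdown peak of 3.66, and SDC1, a surface marker of plasma cells, a downstream one of 2.89, neither with wild-type overlap. By spanning peaks, 15 of these 24 genes were covered in the knockdown list and 19 in the wild-type one, against 5 and 10 of 28 markers of other tissues. Of all 19974 protein-coding genes, 9586 (knockdown) and 11831 (wild type) had a spanning peak. These counts are occupancy and not expression, so they do not check the cell type.

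None of 24 cell cycle genes had a peak beside a start in knockdown and 3 had one in wild type. Over all protein-coding genes the shares were 15.4 and 17.3%. The 3 lay at MCM5 and AURKB upstream and PLK1 downstream, with folds from 3.56 to 4.75 and no knockdown overlap. A spanning peak was found for 21 of the 24 in each list. Of all 19974 protein-coding genes, 9586 (knockdown) and 11831 (wild type) had one. Of 22 unfolded protein response genes, 4 had a peak beside a start in knockdown and 5 in wild type, near the background of 15.4 and 17.3%. CANX, the chaperone calnexin, was upstream in both lists with 3.92 and 8.14, and ERN1, which encodes the stress sensor IRE1, was upstream in knockdown with 4.32, beside a spanning knockdown peak of 3.81 and under a spanning wild-type peak of 15.9. Among 28 markers of other tissues, 6 genes in knockdown and 8 in wild type had a peak beside a start, against the same 15.4 and 17.3%. COL1A1, a collagen of connective tissue, had one on each side of a start in both lists, and HBA1, an alpha-globin gene with a near-identical neighbour that makes its value uncertain, one downstream in both. Peaks beside a start were thus found in a list of genes from other tissues too, where the 24 plasma cell and myeloma genes gave 11 and 7.

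The RefSeq promoter windows, 250 bases before to 50 after a start, were searched on both strands for short motifs. Upstream peaks touched 459 windows in knockdown and 277 in wild type, and downstream peaks 531 and 319; a window can also be touched by a spanning peak, and a motif in a window need not lie under the peak. The CCAAT box (CCAAT), bound by NF-Y, was in 24.0% of windows under upstream knockdown peaks (20.1 to 28.1%) and 24.3% under downstream ones (20.7 to 28.2%). Spanning peaks gave 35.0% (34.2 to 35.8%), and all 34943 windows 34.6%. In wild type the shares were 26.7% upstream (21.6 to 32.3%), 21.9% downstream (17.5 to 26.9%) and 32.8% for spanning peaks. The intervals beside the start and over it do not meet in knockdown, and in wild type they meet upstream. The GC box (GGGCGG), bound by SP factors, was in 78.2% upstream, 74.2% downstream and 79.1% of spanning windows in knockdown, against 44.9% of all windows, and in 62.5, 55.8 and 78.1% in wild type. Base composition moved with it: the median GC content was 69.3, 66.3 and 68.3% (knockdown) and 65.0, 62.0 and 68.0% (wild type), against 58.7% over all windows, and its part in the motif shares was not tested. The STAT element TTCNNNGAA, which can share bases with a match to the ETS motif, was in 4.14% of windows upstream and 5.84% downstream in knockdown, 2.53 and 7.21% in wild type, and 7.66% of all windows. None of these shares lay above that of all windows. The NRF1 motif GCGCNTGCG was in 21.1% of windows under downstream knockdown peaks (17.7 to 24.8%), 13.3% under upstream ones and 14.2% under spanning ones, and in 10.0% downstream in wild type, against 7.42% of all windows. In windows with at least 100 bases under the peak, the knockdown shares were 13.7% downstream (9.14 to 19.4%), 8.75% upstream and 13.3% spanning, where the downstream share no longer stood apart from the spanning one. The same limit gave 4.65% for the STAT element downstream in wild type and 2.36% for TATAAA upstream in knockdown. The ETS motif CCGGAAGT was in 3.92% upstream and 6.59% downstream in knockdown, against 8.24% under spanning peaks and 4.11% of all windows. The YY1 motif AAGATGGCG was in 0.654% upstream (3 of 459 windows) and 4.52% downstream (24 of 531) in knockdown. Spanning knockdown peaks gave 3.81%, and all windows 1.75%. In wild type the order was reversed, at 2.17% upstream (6 of 277) and 1.25% downstream (4 of 319). With at least 100 bases under the peak, knockdown gave 0.673% upstream (2 of 297) and 3.16% downstream (6 of 190). These YY1 shares beside the start rest on few windows. The TATA motif TATAAA was in 3.70% of upstream and 4.52% of downstream knockdown windows, against 11.6% of all windows. Upstream in knockdown, the E-box CACGTG was in 8.28% against 7.23% of all windows, and the CRE TGACGTCA in 2.40% against 1.84%.

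By chromosome, the share of promoter peaks within 1 kb that lay beside the start was 26.8% in knockdown and 26.4% in wild type over all chromosomes. It was highest on chromosome 21, at 37.8% (30.8 to 45.2%) in knockdown and 36.3% (30.8 to 42.0%) in wild type, and high on chromosome 19, at 31.4 and 32.6%. It was lowest on chromosome 3 in knockdown, at 21.0% (18.2 to 24.0%), and on chromosome 5 in wild type, at 18.9% (16.3 to 21.7%). Chromosome 19 carried the largest number of these peaks in both lists, with 428 (knockdown) and 748 (wild type).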

How the data were processed

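Per the submitters' processing notes, reads were handled with cutadapt, Trimmomatic and FastQC, aligned with Bowtie2 to hg38, and peaks called with MACS2, with no versions or settings. Per the labels, STAT5A chromatin was pulled down from formaldehyde-fixed, sonicated cells. The sources used here do not name the software that annotated the peaks. The deposited fold enrichment is a linear ratio of the authors' own, and what it is taken over is not stated. Each peak has a deposited q-value, an adjusted p-value of the authors, under 0.05 throughout. The distances in the file were recomputed from the peak edges and the credited starts. Peaks were called shared when they overlapped by at least 1 bp, and the counterpart was the overlapping peak with the longest overlap. Genes were matched by identifier to the RefSeq table of GRCh38.p14, which gave a start for 99.7% of the knockdown and 99.6% of the wild-type peaks. Promoter windows came from RefSeq on the same assembly. Named genes are YTHDF2, STAT5A and MAP2K2, the 6 protein-coding genes of highest fold per list and side, the 4 of highest fold with no overlap, up to 3 per gene list, and the nearest, farthest and 2 widest peaks per side. Some genes that meet this rule are not reported here, and others were named after their values were seen. The peaks and gene lists were chosen with earlier results of these data known. The counting steps were tested on simulated data. With 1 list per condition the conditions were not tested against each other, and the depth is unknown. Computations used scipy 1.17.1, pandas 2.3.3 and numpy 2.4.6 in Python 3.11.15.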

Additional observations from a re-analysis of the deposited data

How the results depend on the processing

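No paired analysis was possible because each condition has 1 list and no test was made. Values are given for knockdown, then wild type. Measured from the summit, the median distance was 543 bp upstream and 469.5 bp downstream, then 697 and 632 bp. With a fold of at least 5 in both lists, 843 and 3320 peaks beside a start were left, with median distances of 270 bp upstream and 166.5 bp downstream in knockdown and 313 bp downstream in wild type. Their median fold was 5.71 and 6.53, median width 494 and 534 bp, shared share 88.0 and 10.7%, share with a spanning peak at the gene 23.5 and 61.7%, and 9 and 25 genes of the gene lists had one, against 38 and 39 without the limit. With q under 0.001, the knockdown downstream distance was 194 bp, the median fold 4.36 and 5.69, the width 387 and 456 bp, the shared share 86.2 and 23.6%, and the share with a spanning peak 40.8 and 67.2%. With q under 0.01, the knockdown fold was 4.13 and width 364 bp, and the wild-type shared share 25.7%. Against a wild-type list cut to equal length, 74.2 and 44.2% were shared, 51.5 and 4.32% had a spanning counterpart, and the 2662 wild-type peaks had a downstream distance of 308 bp, a fold of 7.08, a width of 574 bp, a spanning peak at the gene in 58.7% and 24 genes of the lists. A reciprocal overlap of 50% gave 31.8 and 16.4% shared and 11.8 and 1.39% with a spanning counterpart, and summits within 100 bp gave 33.6 and 13.7%, and 18.0 and 1.25%. Counting protein-coding starts only, 0.480 and 0.441% spanned the start of another gene. Merging peaks within 100 bp changed nothing, since no peaks lie that close, and merging within 300 bp, chosen after seeing the data, kept the counts within 1.5 times. The wild-type share of shared peaks was the smaller one under every setting run. Only the equal-length setting (74.2 and 44.2%) gave the lists the same length, so the others do not check this against list length. The lists differ in length and their depth is unknown, so differences between them cannot be told apart from depth.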
